A study of Mus musculus with 62 samples.

Results

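Lungs of BALB/cJ and C57BL/6J mice were compared after an allergen challenge with Der p 1, a cysteine protease of the house dust mite and one of its major allergens. The comparison took every array whose title names a challenged mouse of either strain, 36 of the 62 arrays of the study. These came from 26 of 48 mice, because repeat arrays of 1 mouse were averaged first: 14 BALB/cJ mice (20 arrays) and 12 C57BL/6J mice (16 arrays). The other arrays came from 11 BALB/cJ and 11 C57BL/6J mice given phosphate-buffered saline (PBS), in which the same strain difference was measured without challenge.

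All mice were male and, PBS mice included, were sensitised with 2 intraperitoneal doses of 10 µg of the allergen, given on day 1 and on day 8. On day 15 the challenged mice received 50 µg Der p 1 and the control mice PBS. All lungs were taken on day 18, 72 h later, so the PBS mice are sensitised controls, and unsensitised mice were not analysed here. RNA of the right lower lobe, depleted of ribosomal RNA, was hybridised to the Affymetrix Mouse Exon 1.0 ST array. Age is not given in the labels.

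BALB/cJ and C57BL/6J are inbred strains that differ at many loci, and BALB/c mice are the strain more often used in models of allergic airway disease because of their stronger type 2 antibody and cytokine responses. In such models, inhaled allergen brings type 2 cytokines, eosinophils, mucus from goblet cells and alternatively activated macrophages into the lung. A strain difference in a gene's regulation or copy number can show on an array whether or not the animal is challenged. Probes designed on the C57BL/6J reference genome can bind a BALB/cJ transcript less well where its sequence differs.

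Values were log2 expression of 16715 transcript clusters, of which 14959 carry 1 gene symbol, and differences are given on the same log2 scale as BALB/cJ minus C57BL/6J. Array medians lay between 6.39 and 6.62, and the SD over clusters of an array (array SD) between 1.44 and 2.09. Mouse numbers begin with 5 or 6. What these number series stand for was not stated in the labels, and both strains fall in both (6 and 8 challenged BALB/cJ mice, 4 and 8 challenged C57BL/6J mice). Number series and array SD were covariates in the limma model behind every difference below. Printed values, means, medians and ranges are not adjusted for them. The gap between 2 medians can thus depart from the modelled difference in size or sign, as in Il13, Arg1 and Epx. The first principal component of the challenged mice held 34.8% of the variance and followed array SD (absolute correlation 0.97). Strain accounted for 15.6% of that component and number series for 29.6%. The second component held 15.4% of the variance, of which strain accounted for 24.6% and number series for 49.9%. The fourth held 7.9% of the variance, and strain accounted for 45.7% of it. Array SD averaged 1.95 ± 0.11 (SD, n = 14) in challenged BALB/cJ and 1.86 ± 0.15 (n = 12) in challenged C57BL/6J mice, so it moved with strain to some degree. The surfactant gene Sftpc had values of 12.80 to 13.83 over all mice, and Scgb1a1, a club cell gene, of 12.40 to 13.47. Both defining lung genes were thus present in all 48 mice, and neither passed the test between challenged strains (adjusted p = 0.583 and 0.0876).

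Several mice stood apart. Clca1, a goblet cell gene that marks allergic mucus production, was at 6.43 in mouse634, labelled challenged BALB/cJ, and at 10.08 to 12.75 in the other 25 challenged mice. In mouse633, labelled BALB/cJ PBS, Clca1 was at 12.59 against 5.12 to 7.74 in the other PBS mice of that strain. Chil4 and Rnase2a, which also mark allergic inflammation, were at 3.62 and 4.43 in mouse634 and at 10.60 and 10.45 in mouse633. In these 3 genes mouse634 lay within the range of the other BALB/cJ PBS mice, and mouse633 within that of the other 25 challenged mice. Whether the 2 labels are exchanged was not tested. The labels were kept, and results were also computed without mouse634. Mouse532, a challenged C57BL/6J mouse, had the lowest array SD of all. Over the 131 clusters whose 2 PBS groups did not overlap, its median position was 36.2% of the way from the C57BL/6J to the BALB/cJ PBS median, against -2.2% to 23.3% in the other 11 challenged C57BL/6J mice and 80.3% to 112.9% in challenged BALB/cJ mice.

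After Der p 1, 1676 clusters differed between the strains (adjusted p under 0.05, limma with Benjamini-Hochberg adjustment), which is 10.0% of those tested. Of these, 831 were higher in BALB/cJ (4.97%) and 845 lower (5.06%), and 3737 clusters (22.4%) had an unadjusted p under 0.05. At least 1.5-fold apart were 370 (2.21%), 154 of them higher (0.921%) and 216 lower (1.29%). The challenged groups did not overlap at all in 69 clusters, 0.413% of those tested. Without mouse634 the count was 1591 (9.52%), of which 1523 were among the 1676, and without mouse532 it was 1829. Leaving out 1 mouse at a time gave 1420 to 1829 calls, and the model moved the count further, to 4509 with number series as the sole covariate and 2222 with none. Counts of called members in the gene lists below are to be read beside the 10.0% called over all clusters. RNA of whole tissue cannot tell fewer cells of a type from less RNA per cell, here and in every result that follows.

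The largest difference among clusters with 1 symbol was in the class II histocompatibility gene H2-Ea, whose promoter is deleted in the C57BL/6 haplotype. H2-Ea values were 10.44, 11.38 and 11.99 (lowest, median and highest) in challenged BALB/cJ mice and 3.50, 4.59 and 7.92 in challenged C57BL/6J mice. The groups lay far apart, and the highest C57BL/6J value was that of mouse532. The difference was 7.01 ± 0.30 (SE, adjusted p = 3.13e-23). No fold is given, because the deposited values do not separate the C57BL/6J level from background.

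Fbp2, the muscle form of the gluconeogenic enzyme fructose-bisphosphatase, had values of 7.43, 7.81 and 8.45 in BALB/cJ and 5.04, 5.63 and 6.65 in C57BL/6J. All 14 BALB/cJ mice were above all 12 C57BL/6J mice, and the difference was 2.40 ± 0.13, 5.29-fold (adjusted p = 1.51e-19). Ctse, which encodes the aspartic protease cathepsin E of antigen-presenting and epithelial cells, ranged from 6.14 to 8.56 with a median of 7.71 in BALB/cJ and from 4.81 to 5.98 with a median of 5.38 in C57BL/6J. The ranges again did not meet, with a difference of 2.13 ± 0.19 (adjusted p = 8.46e-12). Among BALB/cJ mice the 6 of number series 5 had the 6 lowest Ctse values, and the strain difference was 1.29 in series 5 and 2.46 in series 6.

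Other genes among the 15 largest that were higher in BALB/cJ served several functions. Baiap2l1, an adaptor that links membrane curvature to actin, differed by 1.94 ± 0.10, Tbcb, a tubulin folding cofactor, by 1.48 ± 0.12, and Veph1, a pleckstrin-homology protein, by 2.09 ± 0.12. Angptl7, a secreted angiopoietin-like protein, differed by 1.77 ± 0.18, Fhl5, a LIM-domain co-activator, by 1.59 ± 0.15, and the cation pump gene Atp13a4 by 1.44 ± 0.12. The groups did not overlap for any of these 6 genes, nor for Tmem252 (1.66 ± 0.17) and Hdhd3 (1.44 ± 0.17). Il1a, which encodes the alarmin cytokine interleukin 1 alpha, had a median of 7.02 in BALB/cJ and 5.59 in C57BL/6J, with ranges that overlapped between 5.31 and 6.28. Its difference was 1.51 ± 0.18 (adjusted p = 2.75e-08). Gatm, the first enzyme of creatine synthesis, overlapped as well (medians 8.13 and 7.18, difference 1.38 ± 0.27, adjusted p = 0.000303).

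Among the 15 largest that were lower in BALB/cJ, Scoc, a coiled-coil protein of the Golgi and of autophagy, had values of 3.24, 3.73 and 5.04 in BALB/cJ and 5.47, 6.48 and 7.87 in C57BL/6J. The groups did not overlap, and the difference was -2.63 ± 0.23 (adjusted p = 2.34e-12). Metap2, an enzyme that removes the initiator methionine from new proteins, lay between 5.28 and 6.13 (median 5.63) in BALB/cJ and between 7.37 and 8.11 (median 7.78) in C57BL/6J. The gap between the groups exceeded the range within either one, and the difference of -2.28 ± 0.09, 4.86-fold, had the smallest p-value of all genes with 1 symbol (adjusted p = 6.33e-25).

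Mgp, which encodes matrix Gla protein, an inhibitor of calcification made by vascular and airway mesenchyme, had a median of 8.95 (8.68 to 9.89) in BALB/cJ and 11.26 (10.46 to 11.77) in C57BL/6J. The difference was -2.25 ± 0.15 without overlap (adjusted p = 5.49e-16). Apobec3, a cytidine deaminase that restricts retroviruses, had a median of 7.08 (6.81 to 7.75) in BALB/cJ and 8.98 (8.38 to 9.50) in C57BL/6J. Every BALB/cJ mouse was below every C57BL/6J mouse (-1.86 ± 0.09, adjusted p = 2.46e-22). Glp1r, the receptor for glucagon-like peptide 1, overlapped (7.10 to 8.59 against 8.15 to 9.98), with a difference of -1.48 ± 0.15 (adjusted p = 1.6e-10).

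The remaining genes of that direction were Nxpe4 (-2.21 ± 0.13), Ly6d (-2.13 ± 0.20), the odorant receptor Olfr1033 (-1.58 ± 0.22), Gm4956 (-1.50 ± 0.22), Tmem254a (-1.44 ± 0.12), Gdap10 (-1.43 ± 0.19), and Ly6i, AA467197, H2-Ab1 and Zhx2, which are described below. Ly6d and Ly6i belong to a family of closely similar surface proteins whose probes may share sequence, so their values are uncertain between members. Whether a lower BALB/cJ value reflects probe binding was not tested, since probe and exon values were not used here. None of the 30 genes lost its call when any 1 of the 26 challenged mice was left out.

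**Figure D1:**
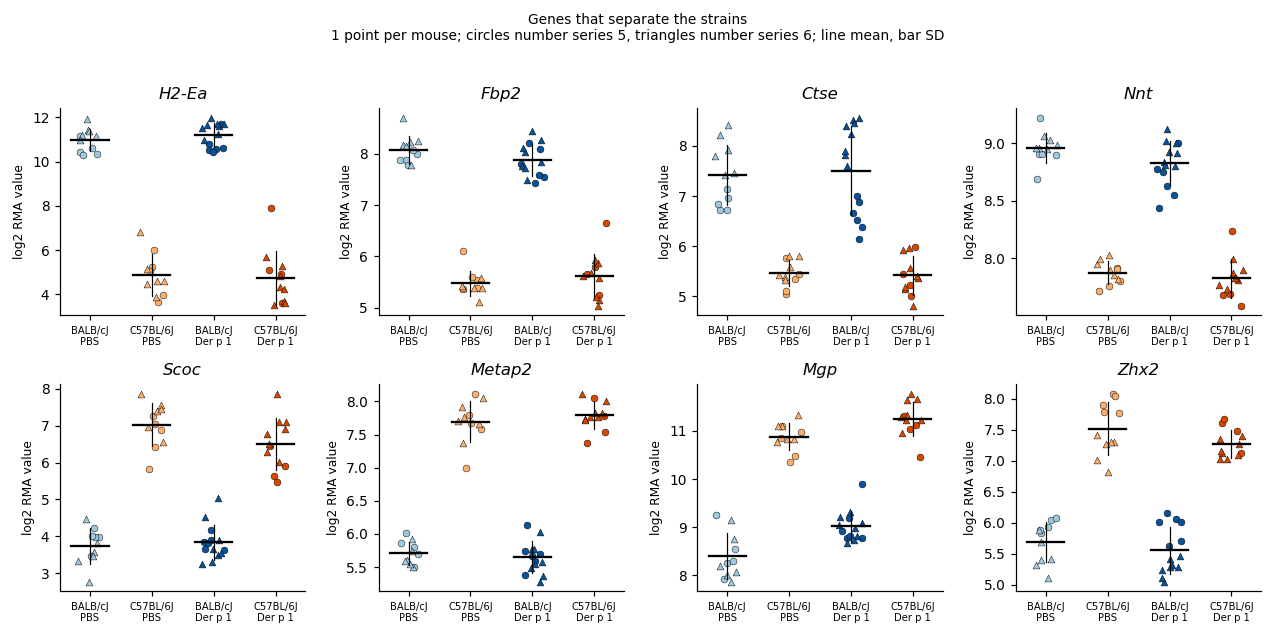
Log2 RMA value (y axis) of 8 genes in each mouse, by strain and challenge (x axis). Each point is a mouse, circles are number series 5, triangles number series 6, the line is the mean and the bar the SD. In the challenged mice the strains do not overlap in H2-Ea, Fbp2, Ctse, Nnt, Scoc, Metap2, Mgp or Zhx2, and the PBS mice show the same direction.

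Loci at which the strains are known to differ served as a check of the strain labels. Nnt, the mitochondrial transhydrogenase that carries a deletion in C57BL/6J, had a median of 8.82 (8.43 to 9.12) in BALB/cJ and 7.81 (7.58 to 8.23) in C57BL/6J. The groups did not overlap, and the difference was 1.01 ± 0.07, 2.02-fold (adjusted p = 8.98e-17). Zhx2, a transcriptional repressor whose expression is reduced in BALB/cJ by an intronic retroviral insertion, lay at 5.43 (5.05 to 6.15) and 7.21 (7.02 to 7.68), a difference of -1.85 ± 0.08 (adjusted p = 1.25e-22). Ifi202b, an interferon-inducible DNA-binding gene that C57BL/6 mice express little, had medians of 5.08 and 3.38 and differed by 1.82 ± 0.22 (adjusted p = 2.68e-08). In Nnt and Zhx2 all 26 challenged mice lay on the side of their labelled strain, mouse532 included.

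In liver, Zhx2 represses H19, Afp and Gpc3. H19, an imprinted noncoding RNA, was higher in BALB/cJ lung by 0.40 ± 0.09 (medians 5.76 and 5.42, overlapping, adjusted p = 0.00165). Afp differed by -0.01 with a 95% interval of -0.11 to 0.08, and Gpc3 by 0.25 with an interval of 0.05 to 0.45 that did not pass after adjustment (adjusted p = 0.0977). Loci with known coding variants between the strains did not pass either. The differences were 0.05 in Pla2g2a (interval -0.16 to 0.26), 0.07 in Tyr (-0.06 to 0.19), -0.07 in Prkdc (-0.29 to 0.14) and 0.01 in Cdkn2a (-0.14 to 0.17).

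The PBS mice form no group mean of the challenged comparison, but all 48 mice share the model's estimates of spread and covariates. A fit of the challenged mice only gave 1251 calls, 1187 of them among the 1676 called after Der p 1. Between the strains the PBS mice gave 1560 calls, 9.33% of clusters, with 689 higher in BALB/cJ (4.12%) and 871 lower (5.21%). An unadjusted p under 0.05 was found in 19.7%, and 397 (2.38%) were called and at least 1.5-fold apart, 149 higher (0.891%) and 248 lower (1.48%). The PBS groups did not overlap in 131 clusters (0.784%). Of the 1676 clusters called after Der p 1, 1623 (96.8%) had the same sign in PBS mice and 931 (55.5%) were also called there with that sign. Those 931 were 59.7% of the PBS calls, and 0 clusters were called in opposite directions. Among the 15039 clusters not called after Der p 1, 9953 (66.2%) had the same sign in PBS mice. Of these 15039, 588 (3.9%) were called in PBS mice with that sign. Of the 370 that differed by at least 1.5-fold after Der p 1, 293 (79.2%) were called in PBS mice. All 30 genes above kept their sign and 29 were called, the exception being AA467197.

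**Figure D2:**
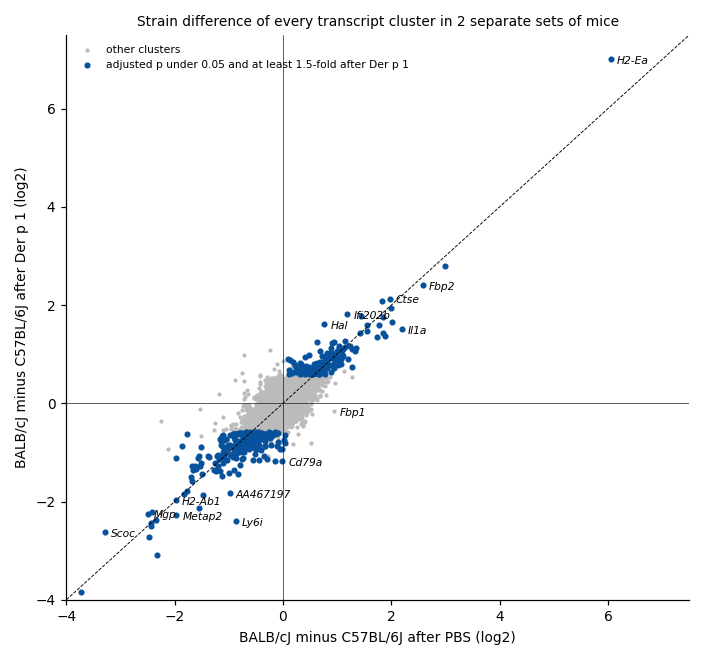
Strain difference after Der p 1 (y axis, log2) against that after PBS (x axis, log2) for every transcript cluster. Blue points are the 370 clusters with an adjusted p under 0.05 and at least 1.5-fold after Der p 1, gray points all others, and the dashed line marks equal differences. H2-Ea stands alone at 7.01 and 6.05, and Ly6i, Hal and Fbp1 lie off the line. Points without a name are not all single genes, since clusters with several symbols or none are drawn too.

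Whether the strain difference itself changed with challenge was tested as the difference of the 2 strain differences. With limma and an adjusted p under 0.05, 1 cluster passed (0.00598% of those tested), and 762 had an unadjusted p under 0.05 (4.56%). That cluster was Fbp1, the liver and kidney form of fructose-bisphosphatase, which neighbours Fbp2 in the genome. Fbp1 values were 5.41, 5.64 and 6.18 in BALB/cJ PBS mice and 4.48, 4.64 and 5.49 in C57BL/6J PBS mice. After Der p 1 they were 5.37, 5.65 and 6.24 in BALB/cJ and 4.95, 5.94 and 6.73 in C57BL/6J.

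Fbp1 was thus higher in BALB/cJ by 0.94 ± 0.14 after PBS (adjusted p = 2.94e-06) and did not pass after Der p 1 (-0.16 ± 0.14, adjusted p = 0.558). The mean moved from 4.73 to 5.96 in C57BL/6J and from 5.68 to 5.72 in BALB/cJ. The change in the strain difference was -1.10 ± 0.20 (adjusted p = 0.0388). The call was lost without mouse634 (adjusted p = 0.0581) and without mouse646 and mouse649 (adjusted p = 0.133), and the estimate was -1.10 in number series 5 alone and -0.99 in series 6 alone, neither of which passed.

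Of the 30 genes, Ly6i had the largest estimated change. Its values were 5.36, 6.00 and 6.61 in challenged BALB/cJ and 6.94, 8.28 and 10.53 in challenged C57BL/6J, without overlap (difference -2.40 ± 0.25, adjusted p = 3.79e-10). After PBS the medians were 5.50 and 6.34, with a difference of -0.87 ± 0.25 (adjusted p = 0.0162). The change of -1.53 had a 95% interval of -2.25 to -0.81 and did not pass over all clusters (adjusted p = 0.207).

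Hal, which encodes histidine ammonia-lyase, the first enzyme of histidine breakdown, differed by 1.61 ± 0.16 after Der p 1 and 0.76 ± 0.16 after PBS. The BALB/cJ median was 6.48 after Der p 1 and 5.61 after PBS, and the strains overlapped in both. The change of 0.86 (interval 0.39 to 1.32) did not pass (adjusted p = 0.548). AA467197 had medians of 4.93 and 6.91 after Der p 1 (-1.83 ± 0.34, adjusted p = 0.000117) and 3.88 and 4.75 after PBS (-0.98 ± 0.34, adjusted p = 0.0586), and the change of -0.85 did not pass (adjusted p = 0.998). Il1a was further apart after PBS than after Der p 1 by the estimates, at 2.19 ± 0.18 and 1.51 ± 0.18, a change of -0.67 that did not pass (adjusted p = 0.998).

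Most interferon-stimulated genes measured were lower in challenged BALB/cJ than in challenged C57BL/6J lungs. These genes are switched on when type I or type III interferons signal through a complex of STAT proteins and IRF9 that binds a GAAA-repeat element in their promoters, and their products block viral replication or sense viral nucleic acid. Of 23 listed genes, 15 were measured, 11 were lower and 0 higher, and all 15 estimates were below 0. The median was -0.78, beside 0.01 over all 14824 genes with 1 symbol, of which 760 were higher and 739 lower. After PBS the median of the same 15 was -0.11, with 1 lower and 0 higher.

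Promoters of 4 of these genes are shown because the interferon element is a direct sequence feature of the group. They are the 250 bases before the start in RefSeq (GRCm38.p6), 5′ to 3′ on the gene's strand, with matches to GAAA, any 2 bases and GAAA again, on either strand, in capitals. Oasl2 is shown as a member with no match.
Bst2, chr8:71537473-71537722, minus strand: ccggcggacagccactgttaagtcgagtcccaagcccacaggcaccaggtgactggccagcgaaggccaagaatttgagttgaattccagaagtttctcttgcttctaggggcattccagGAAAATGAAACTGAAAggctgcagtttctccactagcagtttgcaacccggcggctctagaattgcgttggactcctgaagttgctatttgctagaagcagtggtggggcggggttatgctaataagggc
Ifit1, chr19:34640639-34640888, plus strand: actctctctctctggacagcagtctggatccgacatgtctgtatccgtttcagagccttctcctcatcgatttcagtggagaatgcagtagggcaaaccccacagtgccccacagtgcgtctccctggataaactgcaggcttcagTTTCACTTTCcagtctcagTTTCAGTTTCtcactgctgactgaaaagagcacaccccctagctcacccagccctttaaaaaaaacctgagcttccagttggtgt
Rsad2, chr12:26456453-26456702, minus strand: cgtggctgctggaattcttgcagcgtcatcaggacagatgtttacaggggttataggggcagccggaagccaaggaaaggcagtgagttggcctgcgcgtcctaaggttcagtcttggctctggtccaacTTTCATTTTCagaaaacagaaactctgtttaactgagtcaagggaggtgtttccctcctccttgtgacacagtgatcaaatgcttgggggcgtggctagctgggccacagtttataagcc
Oasl2, chr5:114896684-114896933, plus strand: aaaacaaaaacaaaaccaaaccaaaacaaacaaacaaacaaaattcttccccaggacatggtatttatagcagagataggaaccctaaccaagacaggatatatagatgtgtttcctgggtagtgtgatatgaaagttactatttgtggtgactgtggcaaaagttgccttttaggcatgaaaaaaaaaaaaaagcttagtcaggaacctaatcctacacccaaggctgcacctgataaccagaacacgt

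These letters, GAAA on either side of any 2 bases, searched on both strands over 300 bases from 250 before to 50 after the start, occurred in 1079 of 27025 genes (3.99%). They occurred in 6 of the 10 interferon-stimulated genes with a window, among them 5 of the 8 that were lower (Bst2, Cxcl10, Ddx58, Ifit1 and Rsad2). In Bst2 the 2 matches overlap, and Ifit1 has 2 separate ones. A match is a description of letters and no evidence of binding.

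Bst2, or tetherin, which holds budding virus at the cell surface, had values of 7.26, 7.99 and 8.44 in challenged BALB/cJ and 8.26, 8.98 and 10.16 in challenged C57BL/6J. The groups met at their edges, with a difference of -1.12 ± 0.12 (adjusted p = 2.17e-09). Bst2 was also the 1 member called after PBS (-0.73 ± 0.12, adjusted p = 2.35e-05). Oasl2, an oligoadenylate synthetase-like protein, lay at 6.42, 6.90 and 7.93 in BALB/cJ and 7.29, 8.00 and 9.57 in C57BL/6J. These ranges overlapped between 7.29 and 7.93, and the difference was -1.16 ± 0.16 (adjusted p = 3.78e-07), against -0.44 after PBS (adjusted p = 0.0722).

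Oas2, which makes the activator of the antiviral ribonuclease RNase L, differed by -0.85 ± 0.17 (adjusted p = 0.000232), and Rtp4 by -0.66 ± 0.13 (adjusted p = 0.00036). Rsad2, or viperin, Ifit1, an RNA cap sensor, and Irf7, the regulator that amplifies interferon production, were described after their values were seen. Rsad2 had a median of 6.46 (6.09 to 6.94) in BALB/cJ and 7.10 (6.41 to 9.33) in C57BL/6J, a difference of -0.86 ± 0.21 (adjusted p = 0.00332). Irf7 differed by -0.74 ± 0.21 (adjusted p = 0.013) and Ifit1 by -0.95 ± 0.27 (adjusted p = 0.0138). The 4 members that did not pass were Mx1 (-0.78, adjusted p = 0.0618), Mx2 (-0.58, 0.0727), Ifih1 (-0.29, 0.0746) and Oasl1 (-0.41, 0.0905).

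The C57BL/6J group was uneven in these genes. Mouse646 had the highest value of all 26 challenged mice in 15 of 15 members, and mouse649 the second highest in 15 of 15. The mean over the 15 genes was 9.05 in mouse646 and 8.14 in mouse649, against a group median of 6.88, while BALB/cJ mice ran from 6.03 to 7.08. Without these 2 mice, a choice made after their values were seen that left 1350 calls over all clusters (8.08%), 6 of the 15 were lower and the median was -0.48. Bst2 (-0.95), Oasl2 (-0.94), Oas2 (-0.64) and Rsad2 (-0.57) still passed, and Irf7 (-0.42, adjusted p = 0.0534) and Ifit1 (-0.61, adjusted p = 0.0852) did not.

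The change of the strain difference with challenge was below 0 in 15 of 15 members, with a median of -0.55. It had an unadjusted p under 0.05 in 10 of them and passed in 0 over all clusters (lowest adjusted p = 0.998). Within number series the median strain difference was -0.48 in series 5 (6 called) and -0.81 in series 6 (5 called). It was -0.74 with 11 called without mouse634.

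**Figure D3:**
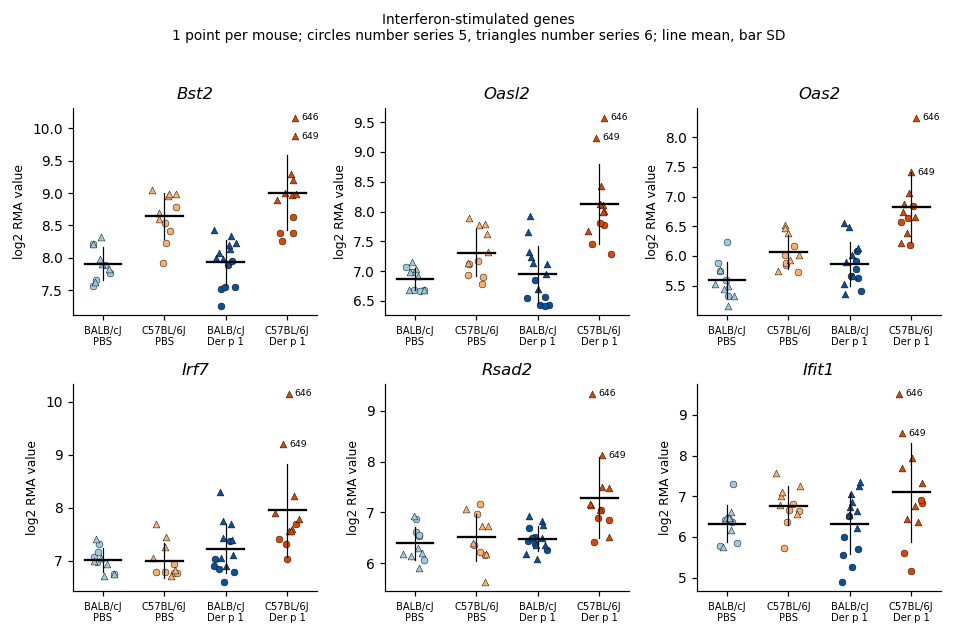
Log2 RMA value (y axis) of 6 interferon-stimulated genes in each mouse by strain and challenge (x axis), with the mean as a line and the SD as a bar. Circles are number series 5 and triangles series 6. The 2 highest points among challenged C57BL/6J mice are mouse646 and mouse649 in each gene, while the PBS groups overlap.

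Interferon-gamma-inducible GTPases, which attack intracellular pathogens and their vacuoles, were lower too. All 7 measured of 18 listed were lower, with a median of -0.51 (0 higher), and after PBS the median was -0.29 with 3 lower. Gvin1 had a median of 7.04 (6.16 to 7.75) in BALB/cJ and 8.35 (7.66 to 9.03) in C57BL/6J, a difference of -1.37 ± 0.14 (adjusted p = 1.68e-10), and was called after PBS as well (-1.16). Gbp3 differed by -0.92 ± 0.15 (adjusted p = 1.8e-05), Gbp2 by -0.59 ± 0.14 and Tgtp1 by -0.49 ± 0.14. A second Tgtp1 cluster did not pass (-0.39, adjusted p = 0.522). Mouse646 was highest of the challenged mice in 7 of 7. Without mouse646 and mouse649 3 remained called, and with no covariates 2. The motif above occurred in 6 of the 6 with a window.

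Class II genes present peptides of inhaled proteins to CD4 T cells. BALB/cJ carries the d haplotype of this region and C57BL/6J the b haplotype, so the alleles themselves differ in sequence. Of the 6 measured genes of 12 listed, 5 were lower in BALB/cJ and only H2-Ea was higher, and after PBS the same 5-to-1 split was found. H2-Ab1 values were 8.86, 9.44 and 10.50 in BALB/cJ and 10.03, 11.60 and 11.88 in C57BL/6J. Those ranges met only between 10.03 and 10.50, and the difference was -1.97 ± 0.17 (adjusted p = 7.8e-13).

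H2-Aa, which pairs with H2-Ab1, differed by -1.38 ± 0.12 (medians 9.56 and 11.09, adjusted p = 5.95e-12). Cd74, the invariant chain that escorts class II molecules and lies outside the histocompatibility region, had medians of 10.49 and 11.88 and differed by -1.22 ± 0.14 (adjusted p = 5.45e-09), against -1.11 after PBS. In class I presentation, where 8 of 25 listed genes were measured, 5 were lower and 1 higher with a median of -0.33. Mouse646 (8.63) and mouse649 (8.54) had the highest mean levels of this list among challenged mice. Without them 3 of the 8 were called and the median was -0.25. The proteasome subunit Psmb9 differed by -0.62 ± 0.15, the peptide transporter Tap1 by -0.60 ± 0.13 and the light chain B2m by -0.47 ± 0.08, while H2-Q10 was higher by 0.37 ± 0.11. B2m did not pass with no covariates (-0.24, adjusted p = 0.172).

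Some B cell genes were lower in challenged BALB/cJ lungs. Of 19 listed B and plasma cell genes 15 were measured, 7 were lower and 0 higher, with a median of -0.49. After PBS 0 were called in limma, 0 had an unadjusted p under 0.05, and the median was -0.01. The 7 were genes of the B cell receptor and of B cell identity. Not all such genes passed, since Cd79b and Fcer2a were measured and not called. Of the 15 members 10 were below 0, and differences ran from -1.18 to 0.20. Cd79a, a signalling chain of the receptor, had values of 6.12, 7.02 and 8.01 in BALB/cJ and 6.37, 7.63 and 9.37 in C57BL/6J, which overlap widely, and differed by -1.18 ± 0.27 (adjusted p = 0.00189).

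Ms4a1, which encodes CD20, had medians of 6.20 and 6.79 and differed by -1.13 ± 0.25 (adjusted p = 0.00138). Cr2, the complement receptor of mature B cells, had medians of 4.42 and 5.07 (-0.80 ± 0.16, adjusted p = 0.000366), and 14 of 14 BALB/cJ mice were below the C57BL/6J mean. Pax5, the transcription factor that fixes B cell fate, differed by -0.55 ± 0.12 and the kinase Blk by -0.61 ± 0.14. Pou2af1 (-0.49) and Fcrla (-0.59) were the other 2 called. Plasma cell genes did not pass, with Xbp1 at 0.20 (adjusted p = 0.126), Mzb1 at 0.20 (adjusted p = 0.42) and Sdc1 at 0.12 (adjusted p = 0.496).

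Most calls of this group depended on few mice. Mouse647, mouse658 and mouse660, all challenged C57BL/6J mice of series 6, held the 3 highest values of the challenged mice in 6 of the 7 called genes. Without them, again a choice made after seeing the values, 1 of the 15 was called and the median was -0.25. The 1 was Cr2 (-0.56, adjusted p = 0.0288). In the same limma fit 8 of the 15 still had an unadjusted p under 0.05, against 9 with all mice. In series 5 alone 0 members were called in limma (median -0.27, 5 with an unadjusted p under 0.05), and in series 6 alone 8 were (median -0.70). The change with challenge passed in 0 of 15 over all clusters (lowest adjusted p = 0.5), and 7 had an unadjusted p under 0.05. T cell genes, measured in the same lungs, had 0 of 13 called in limma, 1 at an unadjusted p under 0.05, and a median of -0.01. Natural killer and cytotoxic lymphocyte genes had 1 of 10 called, 9 below 0 and a median of -0.23, and mouse647 (6.80), mouse660 (6.69) and mouse658 (6.58) had the 3 highest mean levels of that list among challenged mice. Without these 3 mice its median was -0.00 and 0 of 10 were called in limma, with 0 at an unadjusted p under 0.05. Cd79a and Ms4a1 did not pass with no covariates (adjusted p = 0.108 and 0.121).

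**Figure D4:**
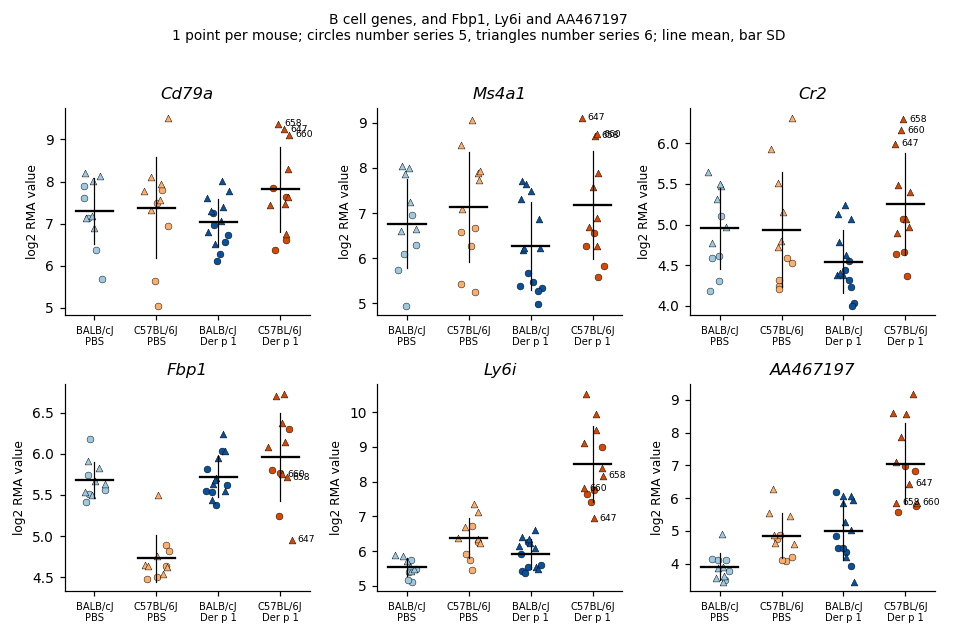
Log2 RMA value (y axis) in each mouse by strain and challenge (x axis) for the B cell genes Cd79a, Ms4a1 and Cr2 and for Fbp1, Ly6i and AA467197, with mean, SD and number series drawn as in the other strips. Mouse647, mouse658 and mouse660 are numbered among challenged C57BL/6J mice and are the 3 highest of that group in the B cell genes. Median Fbp1 was 5.65 in challenged and 5.64 in PBS BALB/cJ mice, against 5.94 and 4.64 in C57BL/6J.

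Few genes of the allergic response itself passed the test between the strains at 72 h. Of 15 measured type 2 cytokine and receptor genes 0 were called in limma (3 had an unadjusted p under 0.05), with a median of -0.06 and differences from -0.33 to 0.25. The count was 1 without mouse634, 1 after quantile normalization, 1 without mouse647, mouse658 and mouse660, and 2 with no covariates, Il5ra and Il9r. Il13, the cytokine that drives mucus production, had unadjusted medians of 5.76 and 5.91, and a modelled difference of the other sign (0.13, interval -0.24 to 0.49). The interval was -0.42 to 0.27 in Il4 and -0.35 to 0.40 in Il5, both centred near 0. Gata3, the transcription factor of type 2 lymphocytes, had a difference of -0.33 and just missed the threshold (adjusted p = 0.0533), which it passed without mouse634 (-0.36, adjusted p = 0.0378).

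Goblet cell genes had 0 of 12 higher and 1 lower, with a median of -0.07. Without mouse634 the median was 0.03 and 2 were called, Galnt6 (-0.39) and, in the other direction, the lectin gene Itln1 (0.82, adjusted p = 0.0264). Clca1 had a median of 11.76 in BALB/cJ and 11.70 in C57BL/6J (-0.36, interval -1.83 to 1.11), and -0.01 without mouse634 (adjusted p = 0.996). That interval holds sizeable differences in either direction, so the strains are not shown to be alike. The 1 lower gene was Galnt6, which starts O-linked glycans (-0.42 ± 0.12, adjusted p = 0.0189). Alternatively activated macrophage genes had 0 of 16 higher and 1 lower, Ccl17, which also counts in the chemokine list below. The count was 2 without mouse634, after quantile normalization and in series 6 alone, and 0 in series 5 alone. It was 3 with no covariates, and 3 without mouse647, mouse658 and mouse660, where the median went from -0.00 to -0.53. Retnla had medians of 12.79 and 13.21 (-0.41, interval -1.14 to 0.32), Chil3 of 11.47 and 11.89 (-0.67, interval -1.38 to 0.04) and Arg1 of 7.44 and 7.47 (0.36, interval -0.66 to 1.38). After PBS, Retnla (-1.25, adjusted p = 0.0182) and Chil3 (-1.51, adjusted p = 0.00235) were lower in BALB/cJ, as was Clca1 (-2.25, adjusted p = 0.0386). Without mouse633 and mouse634 these PBS differences were -1.54, -1.77 and -2.82. The test of whether the strain difference itself differed between PBS and Der p 1 did not pass in any of these 3 genes (adjusted p = 0.998 in each).

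Eosinophil genes had 0 of 10 called in limma, with 3 at an unadjusted p under 0.05 and a median of -0.11. With no covariates 1 was called and the median was -0.39, and after quantile normalization 1 was called and it was -0.20. The median was -0.02 without mouse634 and -0.27 without mouse647, mouse658 and mouse660. Epx, the eosinophil peroxidase, had medians of 4.82 and 4.85 (0.19, interval 0.01 to 0.37, adjusted p = 0.198), and Prg2, the major basic protein, of 5.86 in BALB/cJ (-0.24, interval -0.71 to 0.23). Neutrophil genes (0 of 13 called in limma, 2 at an unadjusted p under 0.05), dendritic cell genes (0 of 13, 4 unadjusted) and club cell genes (0 of 12, 2 unadjusted) held no call.

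Of 28 measured chemokines 1 was higher and 2 were lower, about the share of calls over all clusters (10.0%), with a median of -0.09. Ccl17, a ligand of CCR4 that attracts type 2 helper T cells and is made by dendritic cells and macrophages, had values of 6.00, 7.37 and 8.55 in BALB/cJ and 6.48, 8.71 and 10.10 in C57BL/6J. Although the ranges overlapped, 14 of 14 BALB/cJ mice were below the C57BL/6J mean, and the difference was -1.36 ± 0.29 (adjusted p = 0.000768). It was also lower after PBS (-0.91, adjusted p = 0.0319). Cxcl10 and Cxcl11, neighbouring genes for ligands of CXCR3, went in opposite directions, at -0.94 ± 0.29 (adjusted p = 0.0259) and 0.91 ± 0.24 (adjusted p = 0.00871). Cxcl10 is itself interferon-stimulated, counts in both lists, and lost its call without mouse646 and mouse649 (-0.53, adjusted p = 0.135). Leaving out mouse625 also ended it (adjusted p = 0.0737). C57BL/6 mice are known to carry a frameshift in Cxcl11.

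**Figure D5:**
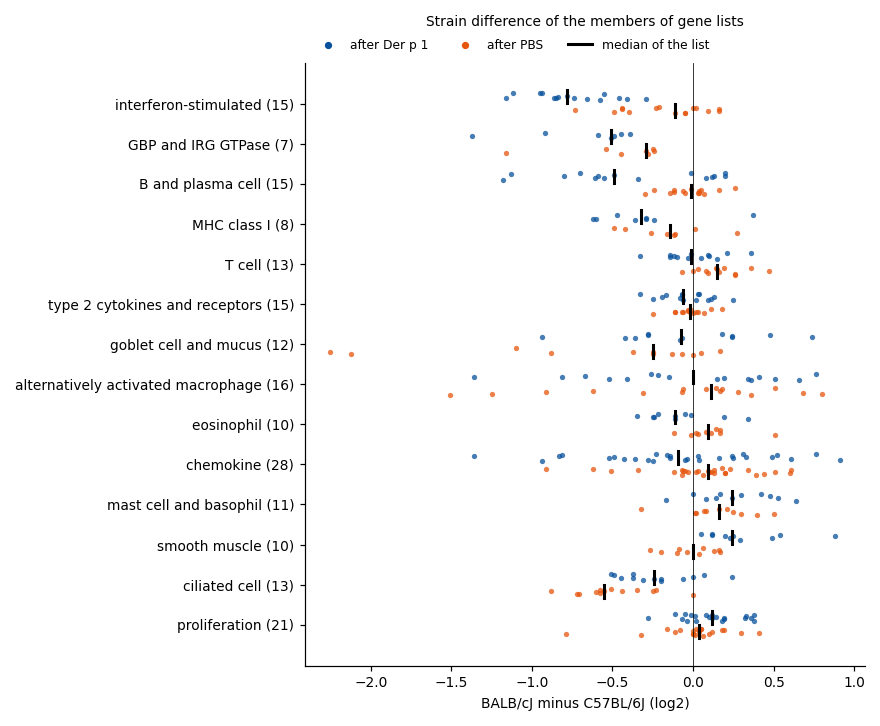
Strain difference (x axis, log2, BALB/cJ minus C57BL/6J) of each measured member of 14 gene lists (y axis, number of members in brackets), after Der p 1 in blue and after PBS in orange, with the median of each list as a black bar. Interferon-stimulated genes lie from -1.16 to -0.29 after Der p 1 with a median of -0.78, against a median of -0.11 after PBS. The type 2 list lies close to 0 in both.

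Mast cell and basophil genes had 5 of 11 higher in BALB/cJ and 0 lower, with a median of 0.24, and after PBS 1 was higher with a median of 0.16. Cpa3, the mast cell carboxypeptidase, had values of 4.33, 4.91 and 6.48 in BALB/cJ and 4.25, 4.71 and 5.03 in C57BL/6J. The lower parts of the groups overlapped, and the values above 5.03 were those of BALB/cJ mice (0.64 ± 0.17, adjusted p = 0.0101). The proteases Mcpt1 (0.53 ± 0.16), Mcpt2 (0.48 ± 0.16) and Mcpt8 (0.42 ± 0.14) and the receptor Kit (0.30 ± 0.10) also passed. Mcpt1 lost its call in 2 of the 26 fits that left out 1 mouse, Mcpt2 in 13, Mcpt8 in 12 and Kit in 15. With no covariates 1 member was called, and without mouse646 and mouse649 2 were.

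Smooth muscle genes had 2 of 10 higher and 0 lower, with a median of 0.24 against 0.00 after PBS. Over all clusters 4.97% were higher and 5.06% lower after Der p 1. The change of the smooth muscle differences with challenge passed in 0 of 10 in limma (lowest adjusted p = 0.998), with 4 at an unadjusted p under 0.05. The list median was 0.04 in series 5 alone (0 called) and 0.44 in series 6 alone (3 called). It was 0.15 with 1 called when mouse647, mouse658 and mouse660 were left out. Tagln, an actin-binding protein of smooth muscle, had a median of 9.48 (9.28 to 10.02) in BALB/cJ and 8.86 (8.57 to 9.32) in C57BL/6J, a difference of 0.49 ± 0.11 (adjusted p = 0.00173). Actg2, the enteric smooth muscle actin, had medians of 8.54 and 7.39 and differed by 0.88 ± 0.23 (adjusted p = 0.00784), with 0.01 in series 5 and 1.44 in series 6. Without mouse647, mouse658 and mouse660 it was 0.61 and did not pass (adjusted p = 0.131). Airway contraction and calcium genes had 5 of 28 higher and 1 lower. Bdkrb2, the bradykinin receptor that contracts airway muscle, had medians of 7.16 and 6.20 (1.10 ± 0.13, adjusted p = 1.13e-08) and differed by 1.27 after PBS. Rgs5 (0.79 ± 0.11) and Rgs4 (0.73 ± 0.14), adjacent genes that dampen G protein signals, were higher, as were Kcnma1 (0.34 ± 0.09) and Pde4d (0.31). Adam33 was lower (-0.18, adjusted p = 0.0342), a call that ended in 6 of the 26 fits without 1 mouse.

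Receptors of the natural killer gene complex had 4 of 8 measured members lower and 0 higher, of 26 listed. Only these 4 were below 0, and differences ran from -1.33 to 0.25 with a median of -0.21. After PBS 3 were lower and 0 higher, with a median of -0.34. Klra2 had a median of 4.19 (3.96 to 4.68) in BALB/cJ and 5.65 (4.88 to 6.34) in C57BL/6J, without overlap, and differed by -1.33 ± 0.16 (adjusted p = 3.21e-08). The Klra genes vary in number and sequence between strains, and their probes may share sequence. Without mouse647, mouse658 and mouse660 1 of the 8 was called, Klra2 (-1.20), and the median went from -0.21 to -0.07. Klrc2 lost its call in 11 of the 26 fits without 1 mouse. Of 17 macrophage and monocyte genes 3 were lower, Marco (-0.46 ± 0.10), Siglec1 (-0.52 ± 0.13) and Mertk (-0.45 ± 0.11), and the other 14 did not pass. The list had a median of -0.07, with 12 members below 0 and differences from -0.52 to 0.41. Its median was -0.10 in series 5 and 0.10 in series 6. Of 22 innate sensor and inflammasome genes 1 was higher and 2 were lower, beside 10.0% of all clusters called. Among them Tlr6, a partner of TLR2, was higher (0.84 ± 0.09, adjusted p = 2.27e-09), and Tlr9, the receptor for unmethylated DNA, was lower (-0.62 ± 0.12, adjusted p = 0.000385).

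Of 10 clock genes, Arntl, which encodes BMAL1, was lower with medians of 5.79 and 6.91 (-1.05 ± 0.19, adjusted p = 6.93e-05), as was its relative Npas2 (-0.39 ± 0.07). Per3 (0.43 ± 0.12) and Cry1 (0.44 ± 0.11), which act against BMAL1, were higher. PBS mice gave -1.19 for Arntl. The hour of tissue collection is not given in the labels, and its part in this result was not tested. In glutathione and antioxidant genes 4 of 26 were higher and 1 lower, beside 4.97% and 5.06% of all clusters. Nnt was joined by Gstm2 (0.62 ± 0.14) and Gstm5 (0.48 ± 0.12), glutathione transferases, and by Hmox1, haem oxygenase 1 (0.79 ± 0.26, lost in 11 of the 26 fits without 1 mouse), with glutathione reductase Gsr lower (-0.43 ± 0.10).

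Alveolar type II genes had 1 of 11 lower, alveolar type I genes 1 of 9, Rtkn2 (-0.91 ± 0.12, adjusted p = 1.65e-07), and ciliated cell genes 2 of 13, Dnah11 (-0.49 ± 0.12) and Ccdc40. Over all clusters 10.0% were called, about the share in the alveolar lists. Of the 13 ciliated cell genes, 11 were below 0 and 6 had an unadjusted p under 0.05 (median -0.24), and after PBS 9 of the 13 were lower in BALB/cJ (median -0.55). Endothelial genes had 3 of 15 higher, with Car4, the carbonic anhydrase of lung capillaries, at 0.40 ± 0.09. Heart muscle (0 of 7) and fat cell genes (0 of 8), which mark tissue that can be taken along with a lobe, held no call in limma, with 0 members of each at an unadjusted p under 0.05. Heart genes as a mean ran from 4.53 to 7.07 in BALB/cJ and 4.76 to 6.96 in C57BL/6J mice.

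Genes that differed often lay side by side. In the order of genes of the RefSeq table, 51 of 305 genes that differed by at least 1.5-fold (16.7%) had such a gene as a neighbour, beside 593 of all 14797 placed genes (4.0%). Of 22 runs of neighbours, most of them pairs, 14 went in 1 direction. Unrelated pairs would often share a direction too, and whether 14 exceeds that share was not tested. The longest was a run of 5 protocadherin genes, Pcdhb7 to Pcdhb11, that mediate adhesion between cells and were all higher in BALB/cJ, from 0.60 in Pcdhb8 to 1.07 in Pcdhb10. They are similar in sequence, and array probes may not separate them. Runs of 1 direction also included Mgp with Art4 (-1.16), Hdhd3 with Alad (1.15), Vnn1 with Vnn3 (-1.04 and -1.02), and Nxpe4 with Nxpe2 (-1.28). Gatm lies beside AA467197, with differences of 1.38 and -1.83, and Ifi202b beside Ifi203 (-0.93 ± 0.17). 

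A strain difference that varied with number series among challenged mice was called in 0 clusters in limma, while 1655 had an unadjusted p under 0.05 (9.90%). Alone, series 5 (6 against 4 mice) gave 336 calls and series 6 (8 against 8) gave 1222. Ifi202b had 0.79 in series 5 and 2.33 in series 6, and the test of that gap gave an adjusted p of 0.0671.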

How the data were processed

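The values are those the authors deposited, log2 expression from Affymetrix Mouse Exon 1.0 ST arrays summarised by RMA on core exons, per the labels, with Partek named in the submitters' processing notes. Arrays have no read depth. Repeat arrays of a mouse had a median cluster SD of 0.190, and the number of mice limits the precision.

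Groups came from the titles, and arrays of a mouse were averaged. limma 3.58.1 in R 4.3.3 fitted 1 mean per group over 48 mice, with number series and array SD as covariates, and p-values were adjusted over 16715 clusters (Benjamini-Hochberg). The code was tested on simulated data. P-values measure the spread between these mice. By the platform annotation 14959 clusters had 1 symbol, 1016 several and 740 none, 14904 were found in RefSeq, and the brightest cluster stood for a gene.

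Genes named by rule were the 15 largest calls in each direction (1 symbol, 1 sign in both number series and without mouse634), calls in the test of the change, up to 4 calls of each list by p-value, and known strain loci. All other genes, such as Irf7, Kit, Adam33, the members that did not pass and the neighbouring genes, were chosen after their values were seen. The members and the 39 lists were chosen with earlier results of these data known.

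Alternatives were other covariates, normalizations, filters on dim clusters, priors, each number series alone, leaving out mice, and each mouse in turn.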

Additional observations from a re-analysis of the deposited data

Results flagged for a closer look

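Fbp1, the liver form of fructose-bisphosphatase, had a strain difference that was itself different after Der p 1 and after PBS. The change was -1.10 on the log2 scale (SE 0.20, limma, adjusted p = 0.0388), from 0.94 after PBS to -0.16 after Der p 1. It was called alone among 16715 clusters. Over the alternatives in which the cluster was tested, the change lay between -0.98 with array weights and -1.19 with no covariates. The adjusted p lay between 0.00234, with every array and the mouse as a random effect, and 1, in number series 6 alone.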

How the results depend on the processing

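After Der p 1 the count of 1676 was 4509 with number series only, 3557 after quantile normalization, 1051 without the dimmest 50% of clusters, 370 with at least 1.5-fold as well, and 336 in number series 5 alone, where 66.4% of calls were lower in BALB/cJ against 50.4% as reported. The other alternatives gave 1222 to 2222, and leaving out each mouse in turn 1420 to 1829. After PBS, 1560 became 779 with no covariates, 578 in series 5, 903 in series 6, 879 without the dimmest 50%, 2323 with array weights and 397 with at least 1.5-fold. The 1 call in the change of the strain difference became 0 without mouse634, without mouse646 and mouse649, and in either series alone. The count was also 0 without the dimmest 50%, but that filter removed Fbp1 itself, so Fbp1 was not tested there. The count became 2 with no covariates, with array SD only and with array weights. It was 4 without mouse633 and mouse634 and after quantile normalization, 5 with mouse as a random effect, and 6 with number series only. The strain difference by number series, 0 as reported, had 4 calls without mouse634. The medians of several lists moved with number series alone. The airway contraction list went from 0.04 to 0.16 in series 6. Goblet cell genes went from -0.07 to -0.22 in series 5 and 0.33 in series 6, alternatively activated macrophage genes from -0.00 to -0.46 and 0.38, and proliferation genes from 0.12 to -0.17 and 0.38, while heart muscle genes went from 0.15 to 0.46 in series 6. All but the first moved by less than the spread of the list's level between mice. That spread is of single mice and is wider than the uncertainty of a difference between group means. It therefore cannot show whether these shifts are large or small for such a difference. The cause of these shifts was not tested, beyond the fewer mice or clusters that some alternatives hold by construction.

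Of 4589 values of the 101 named genes past the threshold, 4281 kept their direction and their call, 307 lost the call and 1 reversed, the matrix gene Postn at -0.07 in series 5 alone (adjusted p = 0.953). For the 30 largest, 1359 of 1362 kept both. Precision is limited by the number of mice, with 4 challenged C57BL/6J mice in series 5, and by the lack of probe values with which to set a background. No paired analysis was possible because the labels tie no mouse of one group to one of another, and 1 lung came from each.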
